A study of Mus musculus with 12 samples.

Results

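The miR-200 family (mmu-miR-200a-3p, mmu-miR-200b-3p, mmu-miR-200c-3p, mmu-miR-141-3p and mmu-miR-429-3p), mmu-miR-203-3p and mmu-miR-205-5p are small RNAs best known from epithelium, and they were followed here in a mouse fibroblast line. They were taken by name (the mouse prefix mmu is left out from here on), as 7 of the 1281 mature miRNAs in the deposited count table, whatever their level. The cells were AKR-2B fibroblasts, an established mouse line, grown as anchorage-independent colonies in soft agar. Soft agar keeps cells from attaching to a surface, and TGFβ (transforming growth factor beta) is a cytokine that drives fibroblasts to make matrix. Each group was set by its treatment (vehicle, or TGFβ at 25 ng/mL) and its time of recovery (2, 4 or 8 days), and all groups shared the line, the agar and the extraction. There was 1 miRNA library and 1 mRNA library per condition and day, 12 libraries in all, so no group had a replicate. A difference within a day is therefore given with an interval for counting error alone and with no p-value. Variation between cultures or library preparations could not be estimated within a day.

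A miRNA is a short RNA cut from a hairpin precursor that leads a silencing complex to messenger RNAs pairing with its seed, the bases at positions 2 to 8. In epithelium the miR-200 family and the transcription factors ZEB1 and ZEB2 repress each other: the miRNAs silence ZEB messages, and ZEB proteins bind and shut the miR-200 genes. TGFβ is known in epithelial cells for tipping that pair towards ZEB during epithelial-to-mesenchymal transition, whereas fibroblasts, which are mesenchymal, are known for little miR-200. miR-203 is abundant in the outer layers of skin, where it restrains the stem-cell factor p63, and miR-205 marks the basal layer of stratified and glandular epithelium and also targets ZEB messages.

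The 7 mature sequences, shown because the members fall into groups by seed, are from RefSeq (GRCm38.p6). They are written from the 5′ end with the seed in capitals. The first 3 share the seed AAUACUG and the next 2 the seed AACACUG, so that the family holds 2 seeds that differ by a single base.
miR-200b-3p: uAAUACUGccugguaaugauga
miR-200c-3p: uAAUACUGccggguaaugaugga
miR-429-3p: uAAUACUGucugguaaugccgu
miR-200a-3p: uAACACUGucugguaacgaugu
miR-141-3p: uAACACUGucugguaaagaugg
miR-203-3p: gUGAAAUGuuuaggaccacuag
miR-205-5p: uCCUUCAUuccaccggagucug

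Counted from 1 at the 5′ end, over 22 aligned bases, miR-200b-3p and miR-200c-3p differed at 2 positions (U11G and A22G). miR-200a-3p and miR-141-3p also differed at 2 positions (C17A and U22G). miR-200b-3p and miR-200a-3p differed at 4 (U4C in the seed, then C9U, U17C and A22U). Of the 1281 miRNAs in the count table, 1029 matched a RefSeq sequence by name, and none of them outside the 7 had any of these 4 seeds.

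The family comes from 2 loci. On chromosome 4 (GRCm38.p6, minus strand) lie the hairpins of Mir200b (chr4:156055681-156055750), Mir200a (chr4:156054896-156054985) and Mir429 (chr4:156053905-156053987), 695 and 908 bases apart, within introns of the protein-coding gene Ttll10. In the overlapping transcript Gm13648-201, Mir200b and Mir200a are intronic and Mir429 lies in exon 2. On chromosome 6 (minus strand) lie Mir200c (chr6:124718322-124718390) and Mir141 (chr6:124717914-124717985), 336 bases apart, in an intron of the antisense gene Gm15884. The annotation used for these positions was GENCODE vM21. Mir203 (chr12:112130880-112130955, plus strand) overlaps no other gene of its strand in that annotation, and Mir205 (chr1:193507463-193507530, minus strand) lies in exon 2 of the long noncoding RNA 4631405K08Rik. The seed groups cut across the loci: miR-429-3p and miR-200b-3p of chromosome 4 share theirs with miR-200c-3p of chromosome 6.

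The hairpins of Mir200b and Mir200a are shown because reads of both arms were counted. The capitals mark the 5p arm and then the 3p arm.
Mir200b: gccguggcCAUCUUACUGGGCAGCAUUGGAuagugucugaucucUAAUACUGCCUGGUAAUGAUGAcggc
Mir200a: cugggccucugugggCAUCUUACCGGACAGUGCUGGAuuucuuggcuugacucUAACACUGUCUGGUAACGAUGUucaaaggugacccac

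Library totals ran from 108716 reads (day 2, vehicle) to 1387785 (day 8, TGFβ), with 424 to 581 miRNAs having a read. Fibroblast miRNAs (miR-199a-5p, miR-199a-3p, miR-214-3p, miR-143-3p, miR-145a-5p and miR-21a-5p) all had reads in every library and together held 119681 to 262931 RPM (reads scaled to a library total of 1000000). None of the 6 markers of the labelled cell type was absent. In bulk RNA fewer cells of a type and less RNA per cell cannot be told apart. The day 2 TGFβ library stands apart in the reads below, and the summed family reads and the edgeR calls are also given without it.

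The miR-200 family was held by the day 2 TGFβ library and was near 0 elsewhere. Summed over its 5 members it had 27.6 RPM with vehicle and 744 RPM with TGFβ at day 2, then 12.9 and 2.17 RPM at day 4 and 2.41 and 3.60 RPM at day 8. The reads behind the 5 low values were 3, 3, 1, 1 and 5. The 744 RPM carried an exact 95% counting interval (Clopper-Pearson) of 623 to 881, while the highest upper limit of the other 5 libraries was 80.6 RPM, so that 1 library lay far above the rest and the intervals of the other 5 all overlapped. Of 146 family reads, 91.1% (exact interval 85.3 to 95.2) were in that library, which held 6.43% of all reads. Without it, 13 family reads remained in 5 libraries.

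The 2 libraries of day 2 were the shallowest of the 6. At the day 2 TGFβ level, 80.8 family reads would be counted at the depth of the day 2 vehicle library, 173 and 342 at the depths of the day 4 vehicle and TGFβ libraries, and 309 and 1032 at those of day 8. The 5 libraries held 3, 3, 1, 1 and 5. Intervals and limits here cover the error of counting and nothing else, as reads were not tied to single molecules by identifiers.

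**Figure D1:**
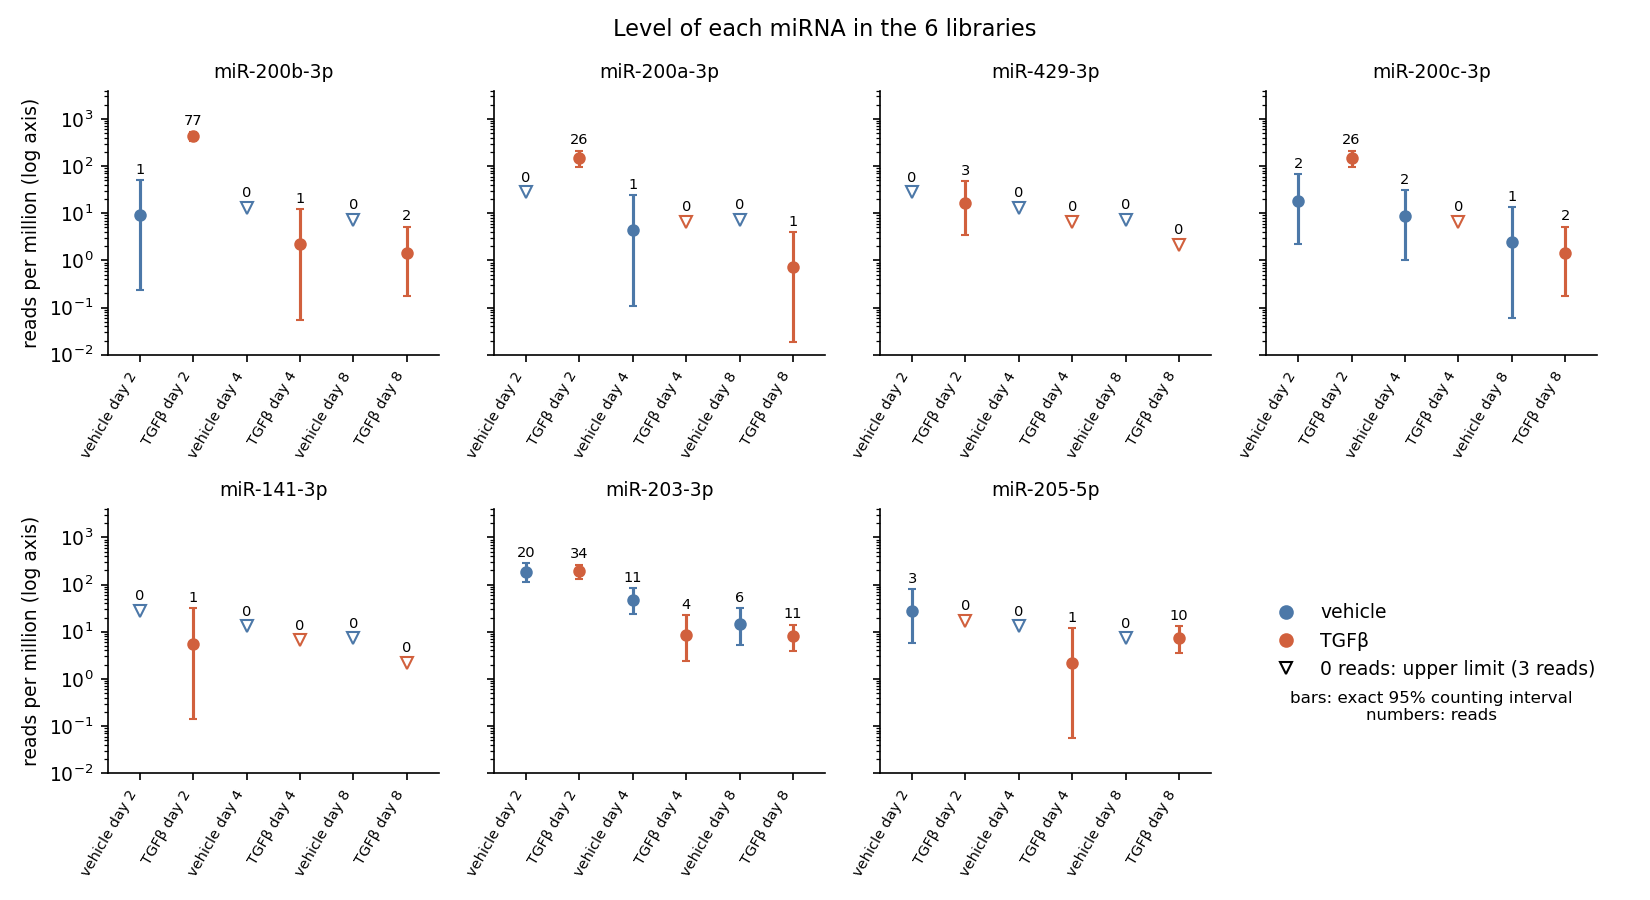
Level of each of the 7 miRNAs in the 6 libraries, in RPM on a log axis, with vehicle in blue and TGFβ in red. Points carry exact 95% counting intervals, numbers are reads, and open triangles mark the limit that a count of 0 allows (3 reads). miR-200b-3p, miR-200a-3p and miR-200c-3p stand up in the day 2 TGFβ library with 77, 26 and 26 reads, and miR-203-3p is high in both day 2 libraries with 20 and 34.

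miR-200b-3p was the family's main member. It had 1 read with vehicle and 77 with TGFβ at day 2, 0 and 1 on day 4, and 0 and 2 at day 8, which is 9.20, 430, 0, 2.17, 0 and 1.44 RPM. A single library was high, and the other 5 did not differ beyond their counting intervals. Scaled by TMM factors (trimmed mean of M-values, edgeR), the day 2 level was 56.1-fold higher with TGFβ than with vehicle, with a conditional binomial 95% interval of 9.78 to 2245 that is wide because the denominator is 1 read. From day 2 to day 8 with TGFβ it went to a level 274-fold lower (73.3 to 2301).

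miR-200a-3p, from the same chromosome 4 locus, had 0 and 26 reads at day 2 (vehicle, then TGFβ), 1 and 0 on day 4, and 0 and 1 at day 8. The day 2 TGFβ value was 145.4 RPM (94.95 to 213), and no other library held over 1 read. With the 0 of the day 2 vehicle library set to its floor of 3 reads (27.6 RPM), the level was at least 6.32-fold higher with TGFβ. That bound leaves out the counting error of the 26 reads, and the lower limit of the ratio itself was 4.78. miR-429-3p, the third miRNA of the locus, had 3 reads in the day 2 TGFβ library and 0 in the other 5.

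miR-200c-3p, from chromosome 6, had 2 and 26 reads at day 2, 2 and 0 on day 4, and 1 and 2 at day 8. In RPM these were 18.4 and 145.4, 8.62 and 0, and 2.41 and 1.44. The day 2 TGFβ library was high again, and 4 of the other 5 libraries held a read or 2. The day 2 ratio was 9.47 (2.37 to 82.4). Its locus partner miR-141-3p had 1 read, in the same library, and 0 elsewhere. Floors of 3 reads allow miR-141-3p and miR-429-3p up to 27.6 RPM in the day 2 vehicle library and up to 2.16 RPM in the day 8 TGFβ library.

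In the deposited counts both loci had reads in the day 2 TGFβ library. How the authors' counting assigned reads that fit more than 1 of these near-identical sequences is not given in the sources used here, so the split between miR-200b-3p and miR-200c-3p, and between miR-200a-3p and miR-141-3p, is uncertain, and with it the split by locus. The chromosome 4 locus gave 106 of the family reads there (79.7%, 71.9 to 86.2) and the chromosome 6 locus 27 (20.3%, 13.8 to 28.1). Against vehicle at day 2 the chromosome 4 locus had 106 reads to 1 (77.2-fold, 13.6 to 3080) and the chromosome 6 locus 27 to 2 (9.84-fold, 2.47 to 85.4). These intervals overlap, and the difference between the loci was not tested. By seed, AAUACUG and AACACUG took the same 106 and 27 reads, since miR-200c-3p and miR-200a-3p had 26 each. Members of a locus come from a shared transcript and are not independent measurements.

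The opposite arms, which the silencing complex usually keeps in smaller amount, followed the same library. miR-200a-5p had 1 read with vehicle and 7 with TGFβ at day 2 and 0 in the 4 later libraries. miR-200b-5p and miR-141-5p had 1 read each, both in the day 2 TGFβ library. Of the 7 opposite arms together, 9 of 10 reads were in that library (90%, 55.5 to 99.7), and miR-200c-5p, miR-429-5p, miR-203-5p and miR-205-3p had 0 reads in all 6. The 5p arm made up 21.2% (8.98 to 38.9) of the Mir200a reads there (7 of 33) and 1.28% (0.0325 to 6.94) of the Mir200b reads (1 of 78), so Mir200a gave the larger 5p share, with intervals that do not overlap.

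miR-203-3p had another pattern: it was high at day 2 in both treatments and lower later. It had 20 reads with vehicle and 34 with TGFβ at day 2, 11 and 4 on day 4, and 6 and 11 at day 8. Its levels were 184 and 190 RPM, then 47.4 and 8.70, then 14.5 and 7.93. Both day 2 libraries were high and did not differ beyond counting error. The day 4 vehicle library came next, and its interval (23.7 to 84.8) overlapped that of the day 8 vehicle library (5.31 to 31.5) but not those of the day 4 and day 8 TGFβ libraries (2.37 to 22.3 and 3.96 to 14.2), which overlapped each other.

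**Figure D2:**
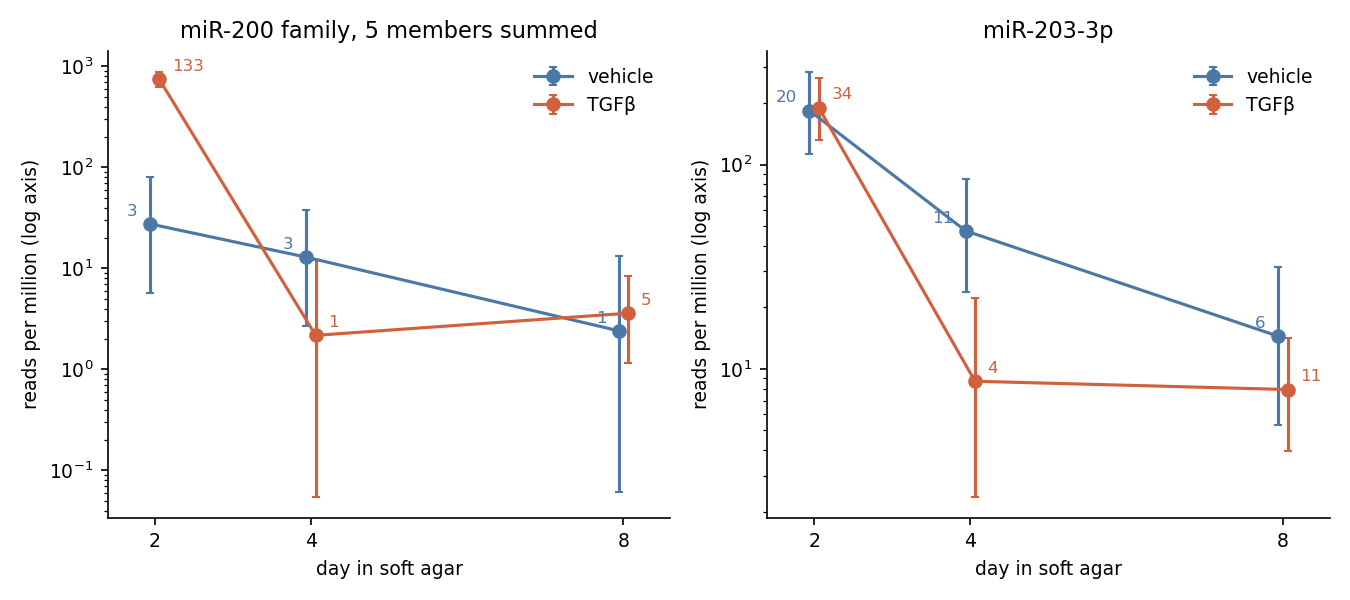
Level by day in soft agar of the miR-200 family (sum of 5 members, left) and of miR-203-3p (right), in RPM on log axes, for vehicle (blue) and TGFβ (red). Points are single libraries with exact 95% counting intervals and their reads. The family is at 744 in a single library and at 27.6 or below in the other 5, and miR-203-3p is lower at days 4 and 8 than at day 2 in both treatments.

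Scaled by TMM, miR-203-3p was 12.3-fold lower at day 8 than at day 2 with vehicle (4.75 to 37.4) and 22.0-fold lower with TGFβ (10.9 to 48.1). At day 4 it was 3.98-fold lower with vehicle (1.82 to 9.21) and 19.3-fold lower with TGFβ (6.90 to 75.1). Within a day, the ratio of TGFβ to vehicle was 1.24 (0.693 to 2.27) at day 2, 0.255 (0.0593 to 0.861) at day 4 and 0.692 (0.235 to 2.28) at day 8. Only the day 4 interval lay off 1, and it rests on 4 and 11 reads.

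The one test the design allowed was an edgeR quasi-likelihood fit of all 6 libraries with day and treatment as terms, whose residual is the change of the TGFβ effect between days, and miR-203-3p alone of the 7 members passed its filter on low counts (309 miRNAs tested). Averaged over treatment, miR-203-3p fell by 4.06 on the log2 scale from day 2 to day 8 (SE 0.72, edgeR adjusted p = 0.0188). Lower calls of that kind were made for 12 miRNAs, 3.88% of those tested. Without the day 2 TGFβ library its change was -3.19, so the fall did not rest on that library alone. Day 2 was then the vehicle library only, with 20 reads of miR-203-3p. From day 2 to day 4 its log2 change was -3.003 (SE 0.72, edgeR adjusted p = 0.361), and no miRNA was called there (0% of 309, with 27 at an unadjusted p under 0.05, and 1 call by DESeq2, which was miR-200b-3p at -6.44, DESeq2 adjusted p = 0.00600). Averaged over days, TGFβ gave miR-203-3p a log2 change of -0.54 (SE 0.59, edgeR adjusted p = 0.577), in a fit that called 6 miRNAs (1.94%).

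The miR-200 members passed that filter in no setting that kept it. In the same fit with no filter, miR-200b-3p had a log2 change with TGFβ of 5.46 averaged over days (edgeR adjusted p = 0.000265), miR-200a-3p one of 3.51 (edgeR adjusted p = 0.0948) and miR-200c-3p one of 1.21 (edgeR adjusted p = 0.661). That fit called 46 of 664 miRNAs for TGFβ, 27 of them higher. Its p-values are not on the footing of the filtered fit. For miR-203-3p from day 2 to day 8 the log2 changes were alike (-3.86 with no filter, -4.06 with it, SE 0.72 in both). The edgeR p-value before adjustment was 8.21e-08 with no filter and 0.000343 with it. Small p-values of the fit with no filter are therefore not read as a measure of variation between cultures. The call of miR-200b-3p was lost when the day 2 TGFβ library was left out as well (3.17, edgeR adjusted p = 0.582). By day, the fit with no filter called miR-200b-3p (-7.51, edgeR adjusted p = 3.29e-08), miR-200a-3p, miR-200c-3p and miR-203-3p lower at day 8 than at day 2. They were 4 of 28 lower calls among 664 miRNAs tested. That fit called the same 4 lower at day 4 than at day 2, with edgeR adjusted p = 4.58e-06 for miR-200b-3p (-7.11), 0.0185 for miR-200a-3p (-5.14), 0.0109 for miR-200c-3p (-4.37) and 0.00640 for miR-203-3p (-2.91). Those were 4 of 10 lower calls among the 664. Without the day 2 TGFβ library as well, miR-200b-3p was no longer called at day 8 (-5.06, edgeR adjusted p = 0.688), and of the 4 only miR-203-3p was. At day 4 none of the 4 was called without that library (edgeR adjusted p = 0.984 for miR-200b-3p). The miR-200 calls of the edgeR fit thus rest on a single library.

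miR-205-5p had 3 reads with vehicle and 0 with TGFβ at day 2, 0 and 1 on day 4, and 0 and 10 at day 8. These were 27.6, 0, 0, 2.17, 0 and 7.21 RPM. It was the single member with no read in the day 2 TGFβ library, where a count of 0 allows up to 16.8 RPM, below the 27.6 RPM of the day 2 vehicle library but within that value's interval (5.69 to 80.6). Its 10 reads in the day 8 TGFβ library came from the deepest library, and the vehicle count of 0 there allows up to 7.23 RPM. On library totals that limit lies just above the 7.21 RPM with TGFβ, and with TMM scaling the lower limit of the ratio was 0.846, so a difference was not detectable at this depth.

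By number of members with a read, the day 2 TGFβ library held 6 of 7, the day 8 TGFβ library 5, the day 2 vehicle library 4, both day 4 libraries 3 and the day 8 vehicle library 2. Of all 1281 miRNAs, 455, 581, 424, 488, 509 and 501 had a read in these libraries, day 4 vehicle before day 4 TGFβ. Depth differed as well, and the day 8 TGFβ library was the deepest. At a minimum of 10 reads the counts were 4 and 2 for the day 2 and day 8 TGFβ libraries, 1 each for the day 2 and day 4 vehicle libraries, and 0 for the remaining 2. All 7 members summed gave 239 and 934 RPM at day 2, 60.3 and 13.0 on day 4, and 16.9 and 18.7 at day 8, vehicle before TGFβ. The sum was thus higher with TGFβ at day 2, lower with TGFβ at day 4 (6 reads to 14) and alike within counting error at day 8 (26 reads to 7, ratio 1.402, 0.593 to 3.83).

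For the background of a day, log2 changes (prior count of 2) were taken over all miRNAs whose 2 libraries averaged 10 CPM or more (counts scaled to the TMM-adjusted library size). That minimum was met by 5 members at day 2 and by miR-203-3p alone at days 4 and 8. At day 2, 43 of 362 miRNAs (11.9%) were at least 1 log2 unit higher with TGFβ and 51 (14.1%) at least 1 lower. miR-200b-3p, miR-200a-3p and miR-200c-3p were among the former (5.18, 5.10 and 2.93) and miR-205-5p among the latter (-2.65), while miR-203-3p was at 0.30. Of these 5, miR-200b-3p, miR-200a-3p and miR-205-5p reached the minimum through 1 library, and miR-200c-3p largely so, which forces a difference, and nothing is read from their number. At day 4, where 21.6% of 366 miRNAs were higher and 17.8% lower by that rule, miR-203-3p was lower (-1.60). At day 8, with 20.2% of 361 higher and 21.6% lower, it was at -0.37. With totals in place of TMM, the median over all miRNAs shifted by -0.26, -0.44 and -0.33 at days 2, 4 and 8, and no direction named here turned with it.

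**Figure D3:**
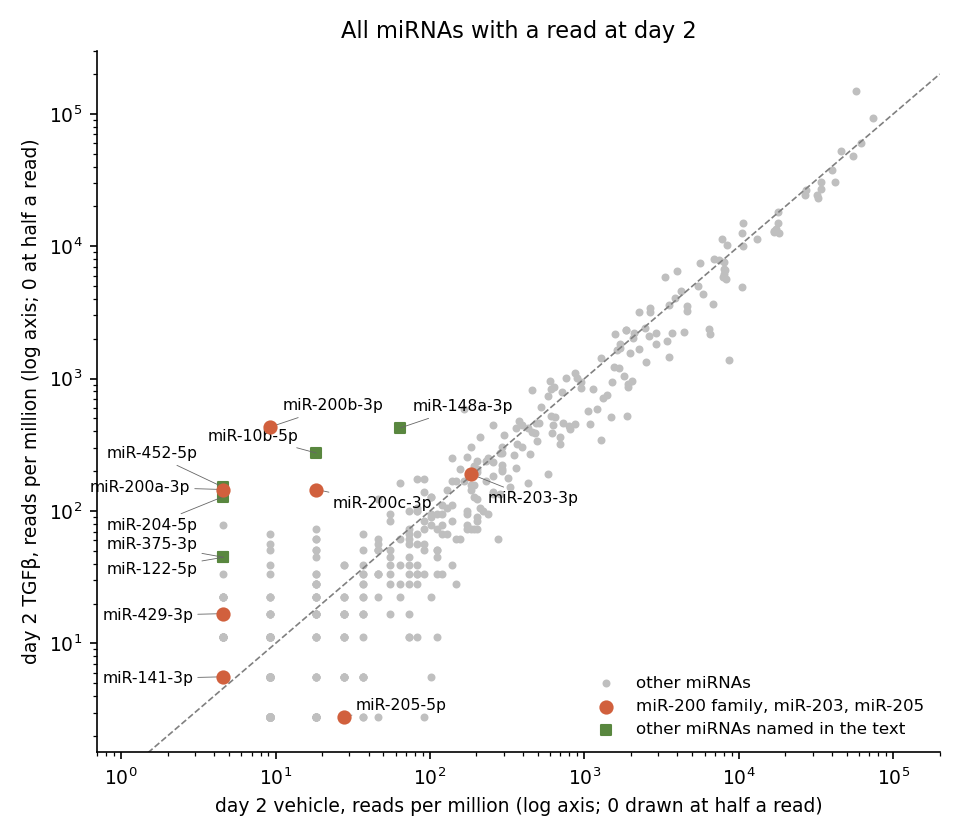
All miRNAs with a read at day 2, in RPM with vehicle (x axis) and TGFβ (y axis), on log axes, with counts of 0 drawn at 0.5 reads and the line of equality dashed. Red points are members and green squares other miRNAs named in the text. miR-200b-3p (1 and 77 reads), miR-200a-3p (0 and 26) and miR-200c-3p (2 and 26) lie above the line with miR-452-5p, miR-204-5p, miR-10b-5p and miR-148a-3p, and miR-203-3p (20 and 34) lies on it.

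The spread over the libraries was set beside that of other miRNAs as a description. For each miRNA with at least 20 reads the TMM-scaled level was divided into shares by library, and likeness was the summed overlap of these shares over the 6 libraries. The 3 nearest to miR-200b-3p were miR-452-5p (97.7%), miR-200a-3p (97.5%) and miR-204-5p (97.4%), and the nearest to miR-200a-3p were miR-452-5p (97.7%), miR-200b-3p (97.5%) and miR-204-5p (97.1%). miR-452-5p had 0 and 27 reads at day 2, 2 in the day 8 TGFβ library and 0 elsewhere, and miR-204-5p, abundant in pigment epithelium of the eye, had 23 reads in the day 2 TGFβ library and 0 in the other 5. miR-200c-3p was nearest to miR-10b-5p, a miRNA of the Hox gene clusters (93.2%), which had 2 and 49 reads at day 2, 2 and 2 on day 4, and 9 and 7 at day 8. Then came miR-200a-3p (87.7%) and miR-200b-3p (86.9%).

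Outside the day 2 TGFβ library miR-200a-3p, miR-200b-3p and miR-200c-3p had 2, 4 and 7 reads. These 3, miR-452-5p and miR-204-5p reached the minimum of 20 reads only through that library, which by itself fixes a high share there and a likeness among them, and miRNAs with fewer reads were left out. Over the 392 miRNAs that met the minimum, the median share of the level in the day 2 TGFβ library was 14.02%. The share was over 50% for 8 of them, in order miR-204-5p (100%), miR-452-5p (98.97%), miR-200b-3p (97.4%), miR-200a-3p (97.1%), miR-200c-3p (84.8%), miR-10b-5p (84.2%), miR-148a-3p (69.9%) and miR-7b-5p (68.9%). Nothing is read from the number of members among the 8. miR-203-3p, with 46.0% of its level there, was below that line. Its nearest were miR-6238 (93.5%), miR-3098-3p (84.0%) and miR-5128 (82.0%). miR-6238 had 55 and 83 reads at day 2, 32 and 22 on day 4, and 36 and 10 at day 8. These overlaps are descriptions over 6 libraries, and they share the libraries' depth and scaling.

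**Figure D4:**
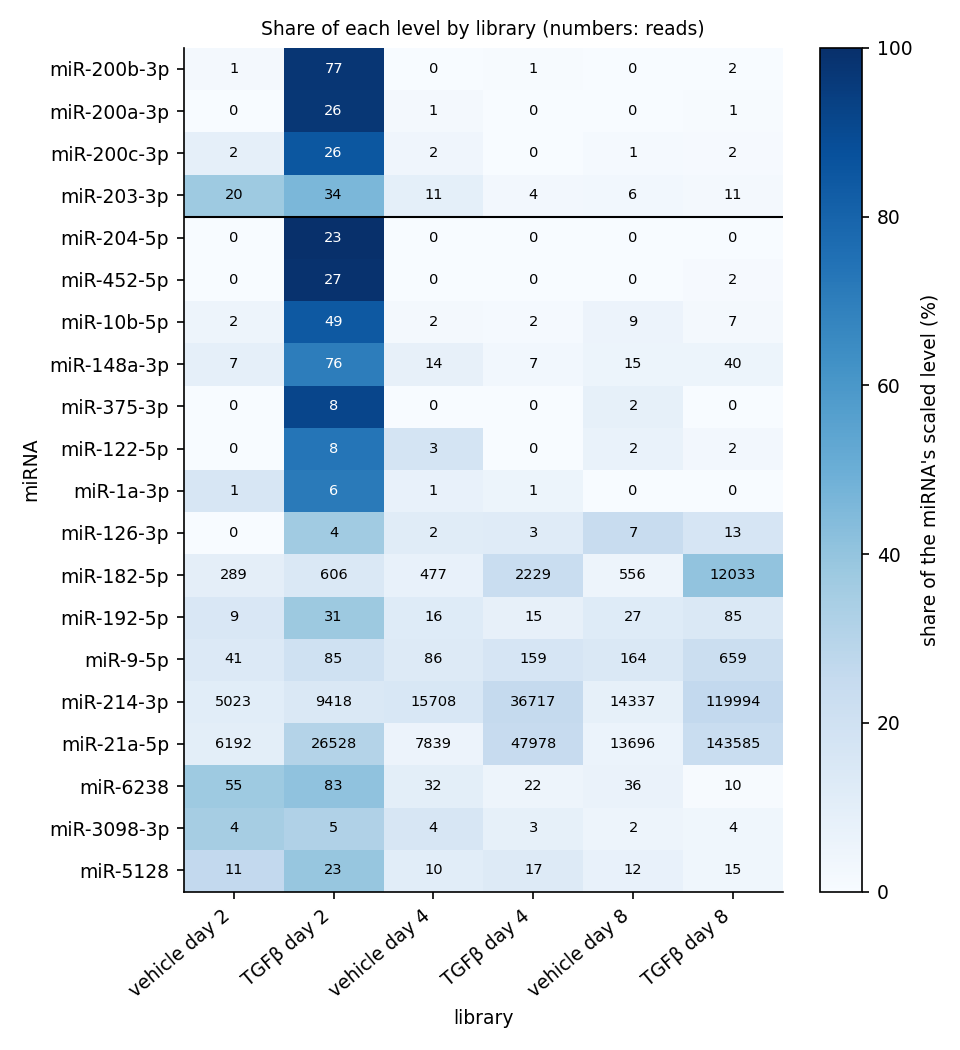
Share of each miRNA's TMM-scaled level (color, in %) in each of the 6 libraries, with reads as numbers: 4 members with at least 20 reads above the line, and miRNAs near to them and cell type markers below it. miR-200b-3p, miR-200a-3p, miR-204-5p and miR-452-5p have 97.1% to 100% of their level in the day 2 TGFβ library, while the fibroblast miR-214-3p and miR-21a-5p are spread over all 6.

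Some markers of other cell types (miR-122-5p, miR-375-3p, miR-1a-3p and miR-126-3p) had their highest RPM in the day 2 TGFβ library. These levels rest on 4 to 8 reads each. No interval or ratio was computed for the markers, so a difference from the day 2 vehicle library was not tested. In the day 2 TGFβ library the liver miRNA miR-122-5p had 8 reads (0 in day 2 vehicle, 3 and 0 at day 4, 2 and 2 at day 8), and the islet and gut miRNA miR-375-3p had 8 (0 in day 2 vehicle, 0 and 0, 2 and 0). Among 3 muscle miRNAs, miR-1a-3p had 6 reads there against 1, 1, 1, 0 and 0 in the others, and miR-133a-3p and miR-133b-3p had 0 in that library. The 2 endothelial miRNAs had 22.4 RPM there (miR-126-3p, 4 reads) and 0 to 16.9 RPM in the others, miR-126-5p being at 0 in all 6. Of 6 miRNAs of leukocytes and red cells (miR-142-3p, miR-142-5p, miR-223-3p, miR-150-5p, miR-451a and miR-144-3p), none had a read in that library, and 3 reads in all were counted in the series, in the day 8 TGFβ library. The neuronal miR-124-3p was at 0 in all 6, and miR-9-5p was level (346 to 477 RPM for the list of 3). A part of RNA from other cells in the miR-200 reads was not tested.

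The 7 other epithelial miRNAs (miR-182-5p, miR-183-5p, miR-96-5p, miR-375-3p, miR-192-5p, miR-194-5p and miR-215-5p) did not follow the miR-200 family as a list. They summed to 6880 and 10225 RPM at day 2, 5890 and 9991 on day 4, and 3786 and 16566 at day 8, vehicle before TGFβ. The sum was highest in the day 8 TGFβ library, where the miR-200 family had 5 reads, and it was mostly miR-182-5p and miR-183-5p. miR-192-5p had 31 reads at day 2 with TGFβ and 9 with vehicle, 173 and 82.8 RPM, with 32.6 to 68.9 RPM in the later libraries. Others of the list went another way. miR-194-5p had 9.20 RPM with vehicle and 16.8 with TGFβ at day 2, and was highest in the day 8 vehicle library (72.3). miR-96-5p had 129 and 106 RPM at day 2, vehicle before TGFβ, and was highest in the day 8 TGFβ library (283). miR-215-5p had 1 read, in the day 8 TGFβ library.

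The messenger RNA side was seen only through the authors' deposited tables, which list 998 genes per day, 499 of them (50%) with a ratio above 1. Their header names no direction, and they were read as TGFβ over vehicle because the listed direct TGFβ targets, 2, 6 and 4 of 12 at days 2, 4 and 8, were all above 1. Read the other way, every direction below would invert. Their ratios carry no replicate and no per-sample value, a gene outside them is not shown to be unchanged, and most ratios here have the form of very few reads.

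Of 20 known targets of these miRNAs, chosen from textbook knowledge, 2 were listed at day 2 and 0 at the later days. The authors' deposited table gave Jag1, a Notch ligand and a target of miR-200, a ratio of 5.63 at day 2. For Trp63, which encodes p63 and is the classic miR-203 target of skin, the authors' deposited table gave a ratio of 0.0256, or 39-fold lower with TGFβ, a value that at least 19 reads in the larger library would give. The ratio has the form of 1 to 39, so the other library could be at 0, and the 39-fold is not a measured fold. miR-203-3p itself had 184 and 190 RPM in the 2 libraries of that day. Zeb1 and Zeb2 were not listed on any day, nor were the other 9 of 11 genes in the list of mesenchymal factors (among them Snai1, Snai2, Twist1, Cdh2 and Vim).

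The seed matches of these 2 targets are shown as sequence only. A search of the longest annotated 3′ UTR (GENCODE vM21) for the 7 letters pairing with each seed on the sense strand (CAGTATT for the seed AAUACUG; for AACACUG it is CAGTGTT and for UGAAAUG it is CATTTCA, while ATGAAGG pairs with CCUUCAU) found none in the 1568 bases of Jag1-201. Of 1423 mouse 3′ UTRs within 10% of that length, 12.9% to 18.8% hold each of the 4. In the 3064 bases of Trp63-202 it found 1 CAGTATT, 2 CAGTGTT, 1 CATTTCA and no ATGAAGG. The CATTTCA match, at bases 2522 to 2528 of that UTR, is shown with the match in capitals. It pairs with the seed of miR-203-3p, the only member with 10 or more reads in both day 2 libraries.
Trp63 site: gggactctgtggCATTTCAgcactatt
Of 1076 mouse 3′ UTRs within 10% of that length, 33.9% hold CATTTCA, 38.7% hold CAGTGTT and 29.1% hold CAGTATT. A match is a string of letters and not a measured site.

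Of 29 epithelial genes, 4 were listed at day 2, 2 at day 4 and 1 at day 8. In the authors' deposited table for day 2, 3 lay above 1 and 1 below: the keratin genes Krt8 (33) and Krt14 (7), the tight-junction gene Cldn4 (3), and Krt7 (11-fold lower with TGFβ). In the authors' deposited table for day 4, Krt8 (8.6) and Marveld2 (5), which encodes the junction protein tricellulin, lay above 1, and in that for day 8 Cldn4 alone did (5). Of these, Krt8 would need at least 16 reads in the larger library at day 2 and 21 on day 4, and each of the others 5 or fewer. Cdh1, Epcam, Esrp1, Grhl2 and Ovol1, core genes of the epithelial program, were not listed on any day. The host gene Ttll10, named after its value was seen, was listed at day 8 alone, with a ratio of 5 in the authors' deposited table. At least 2 reads in the larger library would give that ratio. On that day the 3 miRNAs of its introns had 0 and 3 reads together, vehicle before TGFβ.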

How the data were processed

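The deposited miRNA count table gives each mature miRNA's reads as whole, unscaled numbers. A second deposited table gives RPM values, scaled by the authors to library totals; it lists 5 of the 7 members (not miR-141-3p and miR-429-3p), each within 0.037 RPM of what its count gives. The mRNA tables deposited by the authors hold 1 ratio per gene and day. Per the submitters' processing notes, edgeR 3.9 and mm10 were used, with no role stated; neither an aligner nor a counter is given in the sources used here.

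Levels are RPM of the library total (108716 to 1387785 reads). Ratios used TMM factors (0.839 to 1.17). The fit was edgeR 4.0.16 (limma 3.58.1, R 4.3.3), with filterByExpr, day and treatment as terms and Benjamini-Hochberg adjustment at 0.05. It was tried on simulated data for the treatment term alone, so the day terms were not checked. Days are not replicates of each other. Alternatives were DESeq2 1.42.0, other scaling, no filter, and days left out. A count of 0 was bounded at 3 reads. That bound is lower than the upper limit of the exact 95% interval used for the other counts. For a 0 in the day 2 vehicle library the 2 are 27.6 and 33.9 RPM, and in the day 2 TGFβ library 16.8 and 20.6 RPM. All 7 members, their opposite arms, every listed gene of the lists, the 3 most alike miRNAs, and markers by list were named. The members and lists were chosen with earlier results of these data known. miR-203b, a hairpin antisense to Mir203, has no row and was not analysed here.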

Additional observations from a re-analysis of the deposited data

Results flagged for a closer look

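In 8 pairs of days, over 4 members, the log2 change with TGFβ (prior count of 2) had opposite signs. miR-200a-3p was at 5.10 at day 2 (26 reads to 0), -0.85 at day 4 (0 to 1) and 0.24 at day 8 (1 to 0), so that day 4 differed by 5.95 from day 2 and by 1.09 from day 8. miR-200c-3p was at 2.93 at day 2 (26 reads to 2), -1.38 at day 4 (0 to 2) and -0.12 at day 8 (2 to 1), differences of 4.31 and 3.05 from day 2. miR-203-3p was at 0.30 at day 2 (34 reads to 20), -1.60 at day 4 (4 to 11) and -0.37 at day 8 (11 to 6), differences of 1.90 and 0.68 from day 2. miR-205-5p was at -2.65 at day 2 (0 reads to 3), 0.64 at day 4 (1 to 0) and 1.49 at day 8 (10 to 0), differences of 3.30 and 4.14 from day 2. With 1 library per condition and day, none of the 8 differences was tested, and several of the signs rest on 1 to 3 reads. The intervals of the miR-203-3p ratios at days 2 and 4 overlapped (0.693 to 2.27 and 0.0593 to 0.861).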

How the results depend on the processing

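No paired analysis was possible because the groups hold 1 library each and so no replicate numbers to pair, although the day term of the edgeR fit sets TGFβ against vehicle within each day. Of 17 within-day log2 changes, 11 have a count of 0 and an interval open at 1 end. With a prior count of 0.5 these moved by 0.54 to 1.97 (miR-200a-3p at day 2 from 5.10 to 7.07, miR-205-5p at day 2 from -2.65 to -4.47), and the other 6 moved by at most 0.45. No sign turned under other scaling or that prior count. Averaged over days, the count of miRNAs called for TGFβ (6) became 53 with DESeq2 size factors, 61 scaled to totals, 46 with no filter and 29 with the DESeq2 test, 109, 2 and 3 without day 2, 4 and 8, and 111 without the day 2 TGFβ library, a setting chosen after seeing the data. For day 8 against day 2 (21) it became 56, 55, 62 and 52 in the same first 4 settings, 13 without day 4 and 41 without that library. For day 4 against day 2 (0) it became 2 with DESeq2 size factors, 13 with no filter, 1 with the DESeq2 test and 8 without that library. For miR-203-3p from day 2 to day 8 the SE was 0.72 to 0.75 in the main fit and in the first 3 of these settings. Its edgeR p-value before adjustment was 0.000343 in the main fit and 1.05e-06, 1.10e-05 and 8.21e-08 in those settings. The counts of calls are therefore not compared between settings. The cause was not tested. miR-203-3p kept its day 8 call in all 7 alternatives (log2 change -4.20 to -3.05), and at day 4 it was called with DESeq2 size factors (-3.09, edgeR adjusted p = 0.0223) and with no filter (-2.91, edgeR adjusted p = 0.00640), against adjusted p-values of 0.0771 to 0.361 in the others. DESeq2's own test called miR-200b-3p for TGFβ (3.94, DESeq2 adjusted p = 0.0156), and it was not run without the day 2 TGFβ library. Without its most abundant member, miR-203-3p, the summed level was 55.2 and 744 RPM at day 2, 12.9 and 4.35 on day 4, and 2.41 and 10.8 on day 8, vehicle before TGFβ. Members held at 3 or more reads numbered 2 and 5, 1 and 1, and 1 and 2 in the same order, and at 10 or more reads 1 and 4, 1 and 0, and 0 and 2. The day 2 vehicle library, with 108716 reads, is the denominator of every day 2 ratio, and a count of 0 there allows 27.6 RPM.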
